A study of Rattus norvegicus with 52 samples.

Results

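The peaks described here were called for the progesterone receptor (Pr) in mammary epithelium of wild-type rats, without an overlapping call in Cdkn1b knockout rats. They are the rows of the wild-type peak list that shared no base with any row of the knockout peak list. There were 3271 such wild-type-only peaks among the 5251 wild-type peaks (62.29%) and among the 7999 peaks of both lists. The remaining 1980 wild-type peaks overlapped a knockout peak and are called shared. The knockout list held 2748 peaks, of which 761 (27.69%) met no wild-type peak. Because the rule compares the outcome of peak calling in both genotypes, the strength of the peaks is given as a description without a test.

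Pr chromatin immunoprecipitation (ChIP) was done on dissociated mammary organoids, the epithelial ducts freed from the gland by digestion, with an antibody against Pr. The labels give 1 library from Cdkn1b+/+ and 1 from Cdkn1b-/- ACI females, both 9 weeks old, so no peak has a replicate. ACI is an inbred rat strain prone to mammary tumors under estrogen. Cdkn1b encodes p27, an inhibitor of cyclin-dependent kinases. The gene was disrupted in the germline with CRISPR, by small deletions that shift its reading frame, in the Sprague-Dawley strain and crossed into ACI. The series design gives 2 alleles, em1 and em4, in equal parts unless noted otherwise. The mutation was in every cell of the animal and not only in the mammary gland. By the same text wild-type animals were littermates from heterozygous crosses. RNA was measured in 16 libraries of sorted cells of virgin females of the same age, 8 per genotype: 2 of basal cells, 2 of mature luminal cells and 4 of luminal progenitors (LP), of which 2 were sorted as PNA+ and 2 as Cd49b+ cells. Counts per RNA library lay between 21545344 and 33859550. By the methods the ChIP was made on cells of dissociated organoids, while the series design names sorted basal and luminal cells. The methods were followed here. RNA comes from sorted fractions, so the cells that carry a peak cannot be told from these data.

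Pr is a nuclear hormone receptor that binds DNA as a dimer once progesterone is present. Its element is a palindrome with the letters ACA and TGT on either side of a short spacer of any bases. The element is shared with the glucocorticoid receptor. In the mammary gland Pr is present in a subset of luminal cells, from which progesterone acts on neighboring Pr-negative progenitors through secreted ligands, and it often binds with pioneer factors such as Foxa1 at sites away from start sites.

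To show what lies at the peaks, promoter sequences were taken from RefSeq (build GRCr8), from 250 bases before to 50 bases after the start site. They were matched by gene symbol, since the peaks are placed on rn6, and whether the printed bases lie under the peak was not tested. The receptor palindrome was searched as ACANNNTGT, and in a longer form, with a G and any base in front of it and any base and a C behind it, which always contains the shorter one. Both were searched on either strand. A promoter sequence was found for 241 genes with a wild-type-only peak in their promoter and for 9686 of all genes tested for RNA. The longer palindrome occurred in 4 of the 241 (1.66%) and in 0.31% of the 9686. These 4 matches, chosen for display after the search, are printed with the palindrome in capitals.

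Polr1d, subunit of RNA polymerases I and III, GRCr8 chr12:13118275-13118319, minus strand: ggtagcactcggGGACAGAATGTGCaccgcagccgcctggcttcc
Psma6, proteasome subunit, GRCr8 chr6:78514105-78514157, plus strand: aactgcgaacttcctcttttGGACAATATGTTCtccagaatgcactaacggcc
Stx17, autophagosome syntaxin, GRCr8 chr5:67241499-67241551, plus strand: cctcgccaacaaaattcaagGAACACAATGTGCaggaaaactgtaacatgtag
Yeats4, chromatin reader, GRCr8 chr7:54751312-54751362, minus strand: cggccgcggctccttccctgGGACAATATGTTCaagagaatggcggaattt

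The Yeats4 peak at chr7:60294451-60294866 (rn6) had a −log10 q of 32.2 and the Polr1d peak at chr12:9727451-9727781 one of 18.85, both above the median of all wild-type-only peaks. None of the 4 genes passed the RNA test in LP, with log2 differences between 0.0626 for Polr1d and 0.445 for Psma6. The shorter palindrome was found in 13 of the 241 promoters (5.39%) and in 4.08% of the 9686. Forkhead letters (TGTTTAC or TGTTTGC) stood in 5.39% against 5.69%, and AP-1 letters (TGANTCA) in 5.81% against 5.34%. Tfap2 letters (GCCNNNGGC) were found in 34.0% against 24.6% and Ets letters (CCGGAA) in 36.1% against 25.5%. The member promoters were also richer in G and C, with a median of 64.3% against 60.3%, and held a median of 25 CpG dinucleotides against 20, and the part of base composition in these shares was not tested.

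Promoters of 3 genes are shown whole. Tmem231, a transmembrane protein of the ciliary transition zone, and Tmem115, a Golgi protein, had the strongest wild-type-only peaks in a promoter, and Idh1, the cytosolic isocitrate dehydrogenase, had such a peak and changed RNA. Capitals mark matches to ACANNNTGT and to GCCNNNGGC. In Tmem231 the single match, of the second kind, begins at the start site itself. In Tmem115 it begins 203 bases before the start site. Idh1 has a match to the receptor palindrome, ACAGCTTGT, 16 bases before its start site.

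Tmem231, GRCr8 chr19:56813466-56813765, minus strand: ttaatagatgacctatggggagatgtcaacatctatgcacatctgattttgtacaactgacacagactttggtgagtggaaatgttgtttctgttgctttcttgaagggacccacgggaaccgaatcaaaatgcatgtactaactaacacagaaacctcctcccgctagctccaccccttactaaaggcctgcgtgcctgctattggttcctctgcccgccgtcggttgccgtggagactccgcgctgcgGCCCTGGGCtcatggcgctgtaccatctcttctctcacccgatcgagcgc
Tmem115, GRCr8 chr8:117085856-117086155, plus strand: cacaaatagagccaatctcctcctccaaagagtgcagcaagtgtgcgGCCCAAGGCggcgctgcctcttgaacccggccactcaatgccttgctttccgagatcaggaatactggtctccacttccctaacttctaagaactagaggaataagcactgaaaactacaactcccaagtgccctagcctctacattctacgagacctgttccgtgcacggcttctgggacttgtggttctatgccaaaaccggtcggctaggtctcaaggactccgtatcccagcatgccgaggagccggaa
Idh1, GRCr8 chr9:74049425-74049724, minus strand: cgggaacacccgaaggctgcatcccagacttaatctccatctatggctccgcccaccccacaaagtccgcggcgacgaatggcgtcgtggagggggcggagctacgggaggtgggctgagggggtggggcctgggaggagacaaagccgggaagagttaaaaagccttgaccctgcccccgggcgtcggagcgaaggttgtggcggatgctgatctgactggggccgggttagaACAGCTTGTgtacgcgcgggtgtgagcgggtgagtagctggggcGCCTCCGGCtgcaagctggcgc

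Wild-type-only peaks were mostly weak. Fold enrichment, the ratio of ChIP signal at a peak to the background the peak caller estimated, had a median of 5.409 over the 3271 peaks, with the middle of the distribution between 4.524 and 6.545 and a range of 1.449 to 19.57. Shared peaks had a median of 8.735 in the wild type and reached 66.7. The −log10 q, which grows with the certainty of the call, had a median of 6.838 in wild-type-only and 17.58 in shared peaks. Wild-type-only peaks were also narrower, with a median width of 218 bases against 360. A fold of 10 or more was reached by 90 wild-type-only peaks (2.751%) and by 821 shared peaks (41.46%). Only 199 (6.084%) lay above the median fold of the shared peaks. The knockout-only peaks were similar in strength to the wild-type-only peaks, with a median fold of 5.293, a median −log10 q of 6.778 and a median width of 191 bases.

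**Figure D1:**
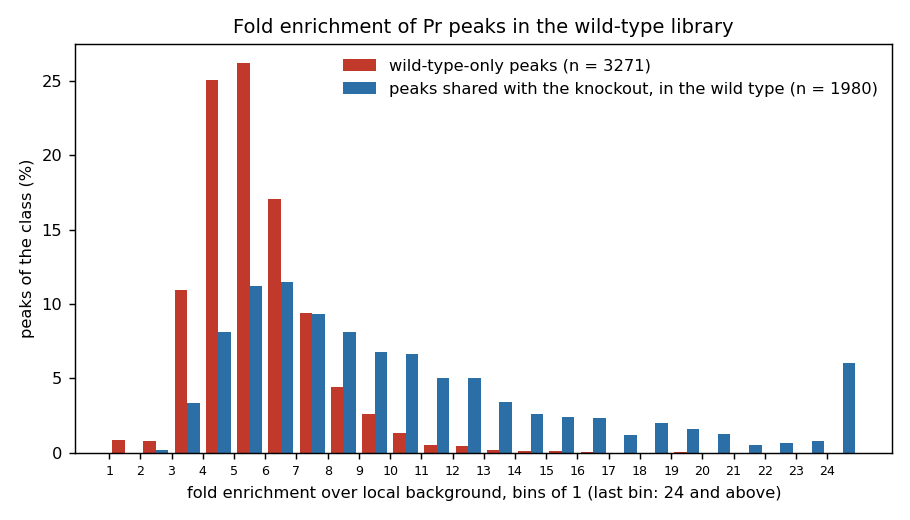
Share of peaks (%) in bins of 1 fold enrichment in the wild-type library, for the 3271 wild-type-only peaks and the 1980 shared peaks, with 24 and above in the last bin. Wild-type-only peaks crowd around their median of 5.409, and shared peaks spread to the right around 8.735.

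The weaker a wild-type peak, the more often it had no knockout counterpart. When the wild-type peaks were cut into 10 groups of equal size by −log10 q, 466 of 526 peaks in the weakest group were wild-type-only (88.59%, 95% Wilson interval 85.59 to 91.03). The share fell below 50% in group 8, where it was 46.01% (41.79 to 50.28). It was 20.38% (17.16 to 24.04) in group 9 and 2.095% (1.174 to 3.713) in the strongest group, with 11 of 525 peaks. None of the 100 strongest wild-type peaks was wild-type-only, and the strongest wild-type-only peak ranked 245. These intervals cover counting error only, since peaks of 1 library are not replicates.

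**Figure D2:**
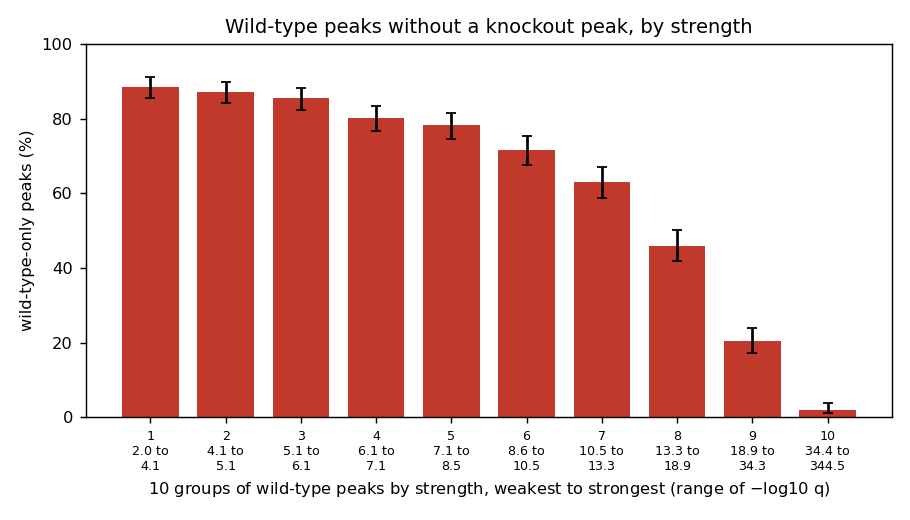
Share of wild-type peaks (%) that were wild-type-only in 10 groups of equal size by −log10 q, weakest to strongest, with 95% Wilson intervals as error bars. The bars fall from 88.59% in the weakest group to 2.095% in the strongest.

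The knockout library also gave lower values at the peaks both lists hold. Over the 1980 shared peaks the median fold was 8.735 in the wild type and 6.746 at the overlapping knockout peaks. The median of the ratios of wild type to knockout was 1.301, with quartiles of 0.9572 and 1.795, and the wild-type value was the higher one at 1424 peaks (71.92%). Lower enrichment in the knockout library as a whole and loss of Pr from single sites cannot be told apart with 1 library per genotype. The weakest −log10 q was 2.005 in the wild-type and 2.01 in the knockout list, which does not show equal depth or sensitivity of the libraries.

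The count of wild-type-only peaks depended on the threshold. When both lists were restricted to a fold of at least 10, 576 of 911 wild-type peaks (63.23%) met no peak of the restricted knockout list. With a −log10 q of at least 10 in both lists it was 1115 of 2155 (51.74%). Against the full knockout list, 90 of the 911 and 730 of the 2155 had no counterpart. The others in these counts met a knockout peak that itself fell below the threshold. When the wild-type list was cut to its 2748 strongest peaks, as many as the knockout had, 1157 (42.1%) remained wild-type-only. At the edge of the rule, the member at chr12:23761095-23761323 (fold 5.053) abutted a knockout peak without sharing a base, and that at chr3:163814745-163814890 (fold 3.834) lay 2 bases away. Just outside, the peaks at chr2:62103868-62104027 (fold 4.987) and chr2:148892238-148892422 (fold 4.728) shared 3 bases with a knockout peak. Most members were far from this edge, since 68 lay within 500 bases and 331 within 10000 bases of a knockout peak, and the median distance was 137895 bases.

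Wild-type-only peaks were spread over 21 chromosomes. Their share of the wild-type peaks ran from 52.75% on chromosome 20 (96 of 182) to 69.2% on chromosome 8 (200 of 289) among the autosomes. On the X chromosome it was 80.49% (33 of 41, Wilson interval 65.99 to 89.77), where the knockout had 11 peaks. The interval covers counting error only, since peaks of the same library are not replicates. The 33 include 4 neighboring members at chrX:18217040-18230305 (folds 1.731 to 2.25) and 4 at chrX:106168343-106179355 (folds 1.641 to 2.115). Whether the X chromosome differs from the autosomes was not tested. Another wild-type-only peak lay within 10000 bases of 487 members (14.89%), a shared peak within that distance of 264 (8.071%), and a knockout-only peak within that distance of 83 (2.537%).

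With gaps of up to 10000 bases joined, 2784 members stood alone, 189 runs held 2, 25 held 3, 6 held 4 and 2 held 5. A run of 5 members spanned chr7:12404790-12424560 at Cirbp, a cold-inducible RNA-binding protein, and Midn, with folds of 3.788 to 7.208. Runs of 4 lay at Bmf, a pro-apoptotic member of the Bcl2 family (chr3:110313033-110324338, folds 4.638 to 8.416), at Junb and Rnaseh2a (chr19:26084008-26101123, 4.106 to 8.116), at the histone gene H3f3b (chr10:104572858-104583202, 3.393 to 7.276) and at Plec, which encodes the cytolinker plectin (chr7:117255239-117267612, 4.317 to 6.529). The other run of 5, at chr1:148642296-148646793, and 2 runs of 4 on the X chromosome differed from these. Their folds lay between 1.524 and 2.25, under the first quartile of all members.

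The strongest wild-type-only peak lay in an intron of Capg, which caps actin filaments, at chr4:100410865-100411533, with a fold of 19.57 and a −log10 q of 58.17. A knockout peak was called 5884 bases away from it. It was followed by an intergenic peak at chr1:216667487-216667833 nearest to Cdkn1c, which encodes p57, the closest relative of p27 (fold 16.25, −log10 q 44.06). The next was a peak in the 5′ untranslated region of Sphk1, the sphingosine kinase, at chr10:105501471-105501946 (11.41 and 42.64). The promoter peaks of Tmem231, at chr19:44158411-44158869 (13.56 and 40.26), and Tmem115, at chr8:116289460-116289872 (12.09 and 38.42), are those whose promoters are printed above.

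The other members among the 10 highest by −log10 q were nearest to Arrdc1, Shprh, Bco1, Tnk2 and Mrps14, with folds between 11.71 and 16.57. Ranked by fold instead, peaks nearest to Tekt5 (fold 15.1), the vasoconstrictor gene Edn1 (14.73), Runx1 (14.51) and Card19 (13.7) entered. The Runx1 peak was intronic, at chr11:32791062-32791393, and Runx1 is a transcription factor of mammary luminal and basal cells. Kdm6b, which encodes a histone H3 lysine demethylase, had the most members nearest to it, 6 with folds of 4.356 to 10.29. Oxr1, Tomm20 and Zfp706 had 4 each.

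Of the 14 genes nearest to these strongest peaks, all were tested for RNA in LP and 1 was called (3.4% of all genes tested were). Sphk1 had 50.3 and 81.2 CPM (counts scaled to the total of the library) in the wild-type Cd49b+ libraries and 35.6 and 59.6 in the wild-type PNA+ libraries, against 105 and 169 and 101 and 118 in the knockout. The groups did not overlap, and Sphk1 rose by a log2 of 1.12 (SE 0.277, edgeR adjusted p = 0.043). The call was lost when any LP library but the second wild-type Cd49b+ one was left out (7 of 8, adjusted p = 0.052 to 0.12), with RLE scaling (0.051) and with summed libraries (0.6). Cdkn1c ranged from 9.22 to 16.6 CPM in the wild type and from 6.27 to 22.2 in the knockout, and the ranges overlapped (log2 −0.10, SE 0.398, adjusted p = 0.93). Runx1 lay between 116 and 186 CPM in the wild type and 117 and 183 in the knockout (adjusted p = 0.93). Capg had 127 to 141 CPM in the wild type and 59.2 to 116 in the knockout (log2 −0.54, SE 0.205, adjusted p = 0.18). Neither Kdm6b (log2 −0.18, SE 0.167, adjusted p = 0.613) nor any of the other genes with 4 or more members was called.

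Cdkn1b RNA itself followed the labels. In LP it stood at 10.7, 6.15, 9.35 and 7.68 CPM in the wild type and at 1.8, 2.4, 2.35 and 2.2 in the knockout, and it fell by 1.95 on the log2 scale (SE 0.265, adjusted p = 0.0021). No wild-type-only peak was named to it. Pgr, the gene of Pr, had 54, 41.7, 66.8 and 57.6 CPM in wild-type LP and 27.2, 20.9, 31.4 and 28.8 in the knockout. The groups did not overlap, but the difference did not pass the edgeR test (log2 −1.02, SE 0.339, adjusted p = 0.12), while DESeq2 gave an adjusted p of 0.046. In bulk samples fewer cells with Pgr and less Pgr RNA per cell cannot be told apart. In mature luminal cells Pgr stood at 17.2 and 14.8 CPM in the wild type and 6.59 and 31.4 in the knockout, so the knockout libraries lay on both sides of the wild type. Wild-type LP libraries lay above both wild-type libraries labelled mature luminal.

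To ask whether genes near the peaks changed RNA, members were tied to the nearest gene with names from the study's own peak annotation. It was at hand for 1733 of the 1741 members with a score, which tracks the q-value, of 65 or more. These 1733 (52.98% of all members) had a median fold of 6.475. The other 1538 members, with a median of 4.522, were not analysed here. Of the named members 1491 lay within 100000 bases of a start site, and they named 1332 genes, 1207 of which had enough counts to be tested. In LP, 60 of the 1207 were called (4.97%), while 3.4% of all 12809 genes tested were called. Of the 60, 38 were higher in the knockout (3.15%, against 2.12% of all genes) and 22 lower (1.82%, against 1.29%). The median log2 difference was 0.0292 over the 1207 and 0.0316 over all genes. The wild-type and knockout LP libraries did not overlap for 187 of the 1207 (15.5%) and for 13.2% of all genes. RNA was not used in choosing the peaks.

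Genes near members were also more abundant, with a median log2 CPM of 4.92 against 4.03. In 4 groups of equal size by abundance the called shares near members and over all genes were 3.36% and 2.5% in the lowest group, then 4.63% and 4.22%, 6.12% and 3.75%, and 4.84% and 3.15% in the highest. The share was 5.35% (16 of 299) for genes with a member in their promoter, 4.33% (28 of 646) within 10000 bases and 5.7% (32 of 561) for genes with members only farther away. Genes with a member of fold 10 or more gave 6 of 72 (8.33%): Aldh1a7, Bicc1, Pdk2 and Sphk1 were higher, and Cd200 and Lrrk1 lower.

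The call in LP rests on libraries that are not independent. Libraries of a genotype that carry the same number, as PNA+ and as Cd49b+, deviated together, with correlations across genes of 0.629 in the knockout and 0.803 in the wild type. When libraries of the same number were summed, edgeR called 0 of 1205 genes near members and 0.0392% of all genes. At an unadjusted p under 0.05 there were 100 of the 1205 and 860 of all 12740. Without any other single LP library the count near members was 23 to 32, lowest without the second wild-type PNA+ library. The share over all genes is not given for these fits. Without the second knockout Cd49b+ library it rose: 141 of 1207 (11.7%) were called against 9.45% of all genes, 68 higher (5.63%, against 3.88%) and 73 lower (6.05%, against 5.58%). DESeq2 called 123 of 1202 (10.2%) against 8.59% of all genes.

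Among the genes higher in knockout LP were Aldh1a7, Idh1 and the steroid response gene Fkbp5. Aldh1a7, an aldehyde dehydrogenase, had the largest difference of the named genes, and a member lay in an intron at chr1:240531864-240532177 (fold 11.67). It had 1.67, 3.22, 1.1 and 2.6 CPM in the wild type (Cd49b+ 1 and 2, then PNA+ 1 and 2, an order kept from here on) and 38.2, 18.1, 38.2 and 28.9 in the knockout. All knockout libraries lay above all wild-type ones, and the log2 difference was 3.84 (SE 0.431, adjusted p = 0.00056). Idh1, with the promoter peak at chr9:71903565-71904045 (fold 7.96), had 27.9, 26.5, 20.6 and 19.7 CPM in the wild type and 75.9, 58.2, 61.7 and 59.2 in the knockout. The wild-type libraries were tightly grouped and the difference was 1.43 (SE 0.192, adjusted p = 0.0019).

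Fkbp5 is a co-chaperone of steroid receptors and a classical target of Pr and the glucocorticoid receptor. An intergenic member lay near it at chr20:8081703-8081925 (fold 6.234). It stood at 12.3, 11.2, 11.6 and 10 CPM in the wild type and 22.9, 51.6, 24.3 and 50.1 in the knockout, where the replicates numbered 2 were the higher ones. The difference was 1.72 (SE 0.325, adjusted p = 0.013). Bmf, which had 2 named members, among them the peak at chr3:110318747-110319220 (fold 8.416), had 2.48, 2.75, 2.7 and 2.91 CPM in the wild type and 6.97, 7.02, 9.23 and 12.1 in the knockout (1.70, SE 0.31, adjusted p = 0.011).

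Slc28a3, a nucleoside transporter, rose from 12.6 ± 4.53 CPM (SD, n = 4) to 60.4 ± 21.2, with a member at chr17:6407434-6407912 (fold 6.776, adjusted p = 0.0022). Thada had a mean of 24.6 ± 3.96 CPM in the wild type and 85.8 ± 35.2 in the knockout, with an intronic member at chr6:7680836-7681311 (fold 8.282, adjusted p = 0.0045). Bicc1, an RNA-binding protein, had 2.99 ± 1.02 and 17.1 ± 7.86 CPM, with a member at chr20:18757832-18758323 (fold 12.65, adjusted p = 0.012). RGD1563692, Tnfaip2 and Blnk completed the 10 largest rises among called genes with a mean log2 CPM above 2. Their log2 differences were 2.68, 2.27 and 1.64, with adjusted p between 0.03 and 0.039. Without single LP libraries the edgeR adjusted p ran from 0.0086 to 0.095 for RGD1563692. It ran from 0.024 to 0.12 for Tnfaip2 and from 0.026 to 0.12 for Blnk. For Tnfaip2 and Blnk the wild-type libraries fell into a higher pair numbered 1 and a lower pair numbered 2.

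Beyond these, Vegfa, the angiogenic growth factor, rose from 285 ± 15.4 to 503 ± 85.2 CPM (log2 0.82, adjusted p = 0.033) and Cebpd, a transcription factor with a member in its promoter, from 216 ± 8.77 to 440 ± 65.8 (1.02, adjusted p = 0.013). The metabolic genes Pdk2, a pyruvate dehydrogenase kinase (1.31, adjusted p = 0.0077), and Me1, the malic enzyme (1.35, adjusted p = 0.012), were also higher. They were singled out after their values were seen.

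Among the genes lower in knockout LP were Foxa1, Prlr and Srf. Foxa1, the pioneer factor that opens chromatin for steroid receptors, had an intergenic member at chr6:78475089-78475245 (fold 6.865). Its levels were 70.8, 42.2, 84.2 and 54.3 CPM in the wild type and 22.1, 22.1, 24 and 31.3 in the knockout. The groups did not overlap, and it fell by 1.34 on the log2 scale (SE 0.29, adjusted p = 0.025). Prlr, the prolactin receptor, had an intronic member at chr2:60147002-60147390 (fold 5.584) and stood at 97.4, 98.6, 103 and 128 CPM in the wild type and 44.8, 41.7, 40.4 and 59.8 in the knockout (log2 −1.19, SE 0.268, adjusted p = 0.029). Leaving out single libraries gave adjusted p between 0.028 and 0.072 for Foxa1 and between 0.033 and 0.095 for Prlr.

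Foxa1 and Prlr belong to the mature luminal markers, whose summed level in LP was 376.3 to 550.9 CPM in the wild type and 182.9 to 243.1 in the knockout. All 6 of these markers were lower in the knockout and 3 were called, and the part of cell composition in these differences was not tested. The wild-type libraries labelled mature luminal had lower sums of the same markers, 194.9 to 260.2 CPM, and higher sums of the luminal progenitor markers, 729.8 to 1703 CPM against 347 to 965.7 in wild-type LP, so these markers go against the labels of both fractions. Basal markers, of which 7 of 8 are in the tables, summed to 270.5 to 881.1 CPM in wild-type and 386.9 to 2656 in knockout LP, against 16600 to 31910 in basal cells, and 0 of the 7 were called, with 6 having higher values in the knockout (median log2 0.51). The 4 luminal progenitor markers tested all had higher values in the knockout (median 0.86) and 0 were called. Fibroblast markers summed to 131.9 to 429.3 CPM in wild-type and 26.93 to 239 in knockout LP (median log2 −1.02), endothelial ones to 238.3 to 466.9 and 77.67 to 520.4 (−0.67), and lymphoid and myeloid ones to 68.2 to 165.2 and 45.15 to 87.13 (−0.32), with 0 called. Adipocyte markers summed to 373.2 to 476.9 and 178.5 to 468.8 CPM. Of these, 2 were tested, with a median log2 of 0.43, 1 higher in the knockout and 0 called. The part of these cells in the results was not tested.

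Srf, the serum response factor, had the smallest SE of the 20 genes with the largest differences above a mean log2 CPM of 2. It stood at 33.8, 32.6, 34.5 and 33.9 CPM in the wild type and 14.8, 16.2, 15 and 13.9 in the knockout (log2 −1.17, SE 0.151, adjusted p = 0.0015). Its member lay at chr9:16734027-16734199 (fold 6.125). Khdrbs3, a splicing regulator with an intronic member at chr7:110074513-110074728 (fold 5.169), had 19.2, 22.7, 22.5 and 24 CPM in the wild type and 7.67, 14.2, 6.66 and 7.51 in the knockout (−1.29, SE 0.22, adjusted p = 0.0085). Gdf15, a stress-induced cytokine, fell from 85.6 ± 23.7 to 30.6 ± 15.8 CPM (adjusted p = 0.028), with an exonic member at chr16:20557507-20557839 (fold 5.565). The chaperone gene Hsph1 was lower (1550 ± 186 against 597 ± 232 CPM, adjusted p = 0.012). So was Hspa8, another chaperone gene, singled out after its values were seen (1840 ± 97.9 against 1160 ± 94.4, adjusted p = 0.037).

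Lrrk1, a kinase (log2 −1.93, adjusted p = 0.009), the galactosyltransferase gene B4galt4 (−1.77, adjusted p = 0.024), Dip2c (−1.37, adjusted p = 0.024) and LOC310926 (−1.95, adjusted p = 0.0027) were also lower. They made up the rest of the 10 largest decreases among called genes with a mean log2 CPM above 2. The member near LOC310926 had a fold of only 2.314. Cd200, a surface glycoprotein with one of the stronger members (fold 12.68, chr11:60447096-60447474), fell from 401 ± 16.7 to 180 ± 34.3 CPM (−1.15, adjusted p = 0.01).

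**Figure D3:**
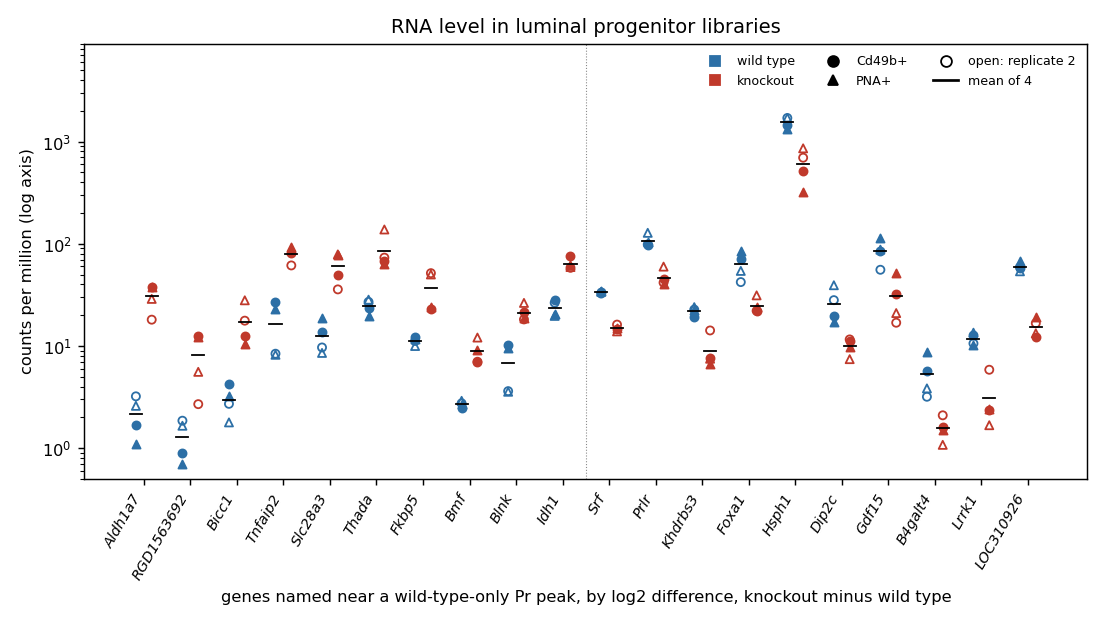
RNA levels (CPM, log axis) in the 4 wild-type and 4 knockout LP libraries, with bars at the means of 4. The genes are the 10 with the largest rise and the 10 with the largest fall near wild-type-only peaks. Only called genes with a mean log2 CPM above 2 were considered. Each of the 20 has separate genotype ranges, which is nearly fixed by choosing called genes with large differences in these same libraries. It is therefore no independent evidence. Without that choice, ranges were separate for 15.5% of the 1207 tested genes near wild-type-only peaks and 13.2% of all genes. For Tnfaip2 and Blnk the wild-type replicates split into a higher and a lower pair.

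Pathway genes near wild-type-only peaks were read from 8 lists, which were chosen with earlier results known. Over all tested genes 9.42% lay near a named member. Of the progesterone and hormone response list, 6 of 21 tested genes did (28.6%): Foxa1, Fkbp5, Tsc22d3, Per1, Errfi1 and Prlr. Of these Fkbp5 was called higher and Foxa1 and Prlr lower, and the median log2 difference was −0.25. Tsc22d3, the glucocorticoid-induced leucine zipper gene, has a strong member on the X chromosome (chrX:111865213-111865454, fold 10.9), but its knockout libraries, at 69.3, 168, 77.5 and 193 CPM, lay on both sides of the wild-type ones at 136, 102, 137 and 114 (adjusted p = 0.96). Per1, a clock gene, had 34.6 to 41.1 CPM in the wild type and 19.9 to 29.4 in the knockout without passing the edgeR test (log2 −0.56, SE 0.159, adjusted p = 0.073). DESeq2 gave an adjusted p of 0.011.

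Of 17 luminal regulators, Tfap2c, Grhl2 and Runx1 lay near a member. Tfap2c, a transcription factor of luminal cells, rose from 111, 97.2, 111 and 75.3 to 156, 180, 178 and 207 CPM (log2 0.87, SE 0.19, adjusted p = 0.026). Its member lay at chr3:170589578-170589869 (fold 6.545). Without single LP libraries its edgeR adjusted p lay between 0.022 and 0.095. The Notch list, of a pathway that directs luminal fate, had 5 of 17 genes near a member (29.4%), namely Notch1, Rbpj, Maml1, Maml3 and Nrarp, and none was called. The receptor gene Notch1 had 118 to 197 CPM in the wild type, and in the knockout 138 and 104 in the replicates numbered 1 and 64.4 and 47.4 in those numbered 2 (log2 −0.86, SE 0.39, adjusted p = 0.26). Nrarp, a target and inhibitor of Notch, had 29.8 to 36.9 CPM in the wild type and 13.8, 49.4, 10.8 and 17.6 in the knockout, where the second Cd49b+ library was the highest. Its adjusted p was 0.5, and 0.017 without that library.

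Of the BMP and TGF-beta list, 5 of 22 genes lay near a member: Smad7, an inhibitor of the pathway, the ligand gene Tgfb1, the receptor genes Tgfbr2 and Tgfbr3, and the target gene Id2. None was called by edgeR. Id2 had 265 to 420 CPM in the wild type and 132 to 270 in the knockout (log2 −0.86, adjusted p = 0.092), and it passed with DESeq2 (adjusted p = 0.035) and with the replicate block (0.015). Smad7 had 61.2, 20.9, 51.9 and 22.7 CPM in the wild type and 76.6, 80.4, 64 and 67.6 in the knockout, with no overlap but a wide wild-type spread (log2 0.88, SE 0.374, adjusted p = 0.23). Of the Wnt list 3 of 21 (Wnt5b, Lrp5 and Ctnnb1), and of the ErbB and Fgf list 4 of 20 (Gab1, Spry1, Spry2 and Dusp6) lay near a member, again with none called by edgeR. Gab1, a docking protein of receptor tyrosine kinases, had an adjusted p of 0.33, and of 0.01 with the crossed pairing chosen after seeing the data. Spry1, which restrains receptor tyrosine kinase signaling, reached an adjusted p of 0.22, and 0.019 without the second knockout Cd49b+ library.

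The G1 cell cycle list had 6 of 21 genes near a member (28.6%), and none was called. They were the inhibitor genes Cdkn1c and Cdkn2c, the cyclin genes Ccnd1 and Ccne1, Rb1 and Wee1. The Ccnd1 member, at the transcript end (chr1:218090290-218090583), had a fold of 5.854, and Ccnd1 stood at 400, 183, 393 and 175 CPM in the wild type and 150, 123, 154 and 157 in the knockout. The wild-type libraries differed more among themselves than the lower pair did from the knockout (log2 −0.98, SE 0.405, adjusted p = 0.22). No milk protein gene of the 8 listed lay near a named member. Over the 7 lists with members, 4 of the 32 genes near a peak were called by edgeR (12.5%, against 3.4% of all genes), and 6 by DESeq2, which added Per1 and Id2. Cited1, Tgfb2, Bmpr1b, Wnt5a, Fgfr2 and Cdkn1b, of the same lists but without a named member within 100000 bases, were called as well. The lists were chosen with earlier results known, so the shares near a member and the shares called are a description only.

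**Figure D4:**
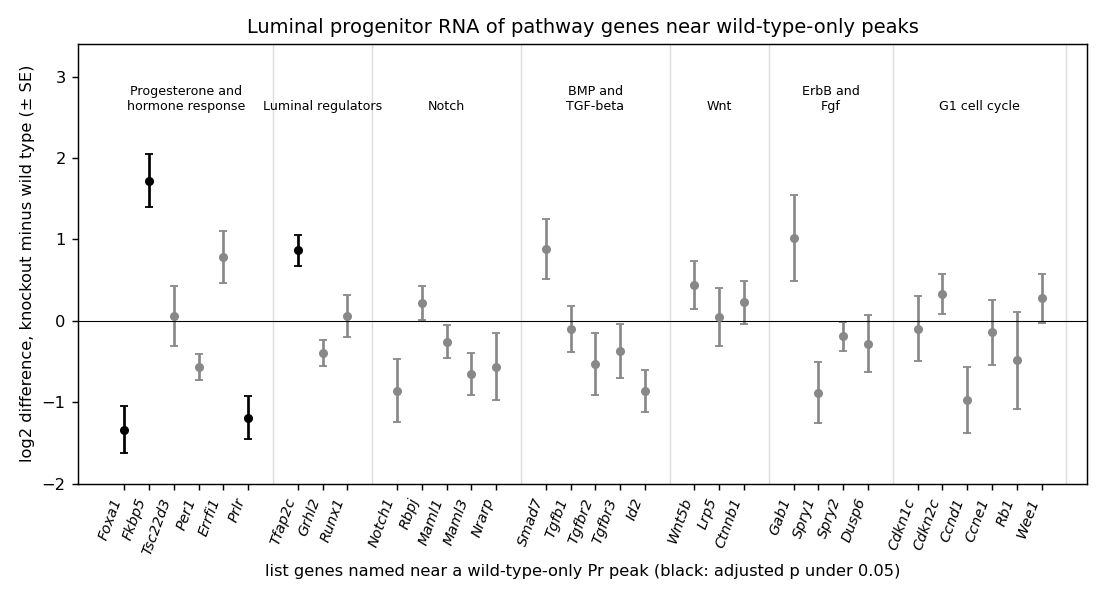
Log2 difference between knockout and wild-type LP, with its standard error, for the 32 list genes near a wild-type-only peak, grouped by list. Foxa1, Fkbp5, Prlr and Tfap2c, in black, passed the edgeR test, and the other 28, in grey, did not, although Per1 and Id2 passed with DESeq2, Id2 with the replicate block, and Gab1 and Errfi1 with the crossed pairing.

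In the other populations few genes near members were called. In basal cells it was 1 of 1207 (0.0829%), against 0.0546% of all genes. This was Ercc1, a DNA repair endonuclease subunit with a promoter member at chr1:80256265-80256701 (fold 6.545), with 37.6 and 45.3 CPM in the wild type and 101 and 84.3 in the knockout (log2 1.16, adjusted p = 0.049). The call was lost with RLE scaling, with no filter, with the replicate block and without any of the 4 basal libraries. In mature luminal cells 4 were called (0.331%, against 0.133%). Idh1 rose there from 8.67 and 13.4 to 54.7 and 37.7 CPM (log2 2.06, adjusted p = 0.013) and Aldh1a7 from 1.26 and 2.98 to 28 and 30.7 (3.79, adjusted p = 0.031). Khdrbs3 fell from 25.9 and 31.5 to 6.84 and 6.19 CPM (−2.14, adjusted p = 0.023), and LOC310926 from 176 and 85.9 to 19.4 and 36.9 (−2.22, adjusted p = 0.047). These 4 genes were also called in LP. The mature luminal count was 0 with the replicate block, 0 or 1 without single libraries and 24 by DESeq2.

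Idh1 had 110 and 88.6 CPM in wild-type and 73.3 and 68.5 in knockout basal cells, where the log2 difference was −0.49 (adjusted p = 0.63). Prlr had 28.9 and 38.1 CPM in wild-type and 19.8 and 47.4 in knockout mature luminal cells (log2 0.0046). Whether the genotype difference itself differed between populations was tested with an interaction term. Of all 12809 genes, 0 passed for LP against basal cells and 0 for LP against mature luminal cells by edgeR. At an unadjusted p under 0.05 there were 926 and 224 of the 12809, and 84 and 25 of the 1207 genes near members. By DESeq2, 1.46% of all genes were called in basal and 1.52% in mature luminal cells, and 18 and 24 genes near members. With 2 libraries per genotype outside LP, a difference between populations was not shown for any gene near a wild-type-only peak.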

How the data were processed

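Pr ChIP-seq peaks of 1 wild-type and 1 knockout library and RNA-seq of 16 libraries were used, all of rats of 9 weeks. The members and the gene lists were chosen with earlier results of these data known.

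According to the authors, the peaks were called with MACS2 2.1.1.20160309 on rn6, and the deposited lists give each peak a score that tracks its q-value, an enrichment as fold (ratio) over background, and the −log10 of p and q. The methods name BWA and the processing notes Bowtie as the aligner, and whether the input libraries served as background is not given in the sources used here. The peak lists hold no read depth of the ChIP libraries, so no interval from depth is given. The authors aligned RNA reads with STAR 2.5.1b and deposited raw counts per gene from htseq-count on refGene. Rows of unassigned reads, 47.15 to 70.93% of each RNA file, were left out. Depth limits genes with few counts. None of the 8 pairs of libraries of one group were duplicates, with 66.3 to 80.9% of genes beyond 2 counting SDs.

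Overlaps were counted with bedtools 2.31.1 (1 base or more). Nearest genes and their position words come from the study's HOMER annotation, which was at hand down to a score of 65. Its distances served only as a filter of 100000 bases. No rn6 genome was used, so sequence under the peaks was not analysed. RNA was fitted with edgeR 4.0.16 (filterByExpr, TMM, quasi-likelihood test, Benjamini-Hochberg over all genes tested, threshold 0.05) in R 4.3.3, with all 16 libraries in one fit and genotype nested in the 3 populations. Whether libraries of a group came from separate animals is not stated, so p-values measure the spread between libraries. In simulated LP data with 200 of 12809 genes changed by a log2 of 2, 67% were recovered and 8.84% of calls were false. The simulated libraries were drawn independently, unlike the correlated LP libraries, so these rates do not carry over to the real fit.

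Peaks named are the 10 highest by −log10 q and by fold, and genes nearest to 4 or more members. Genes named are up to 10 per direction with the largest called LP difference and a mean log2 CPM above 2, up to 3 per direction in the other populations, Cdkn1b, Pgr and list members near a peak. A gene of the lists is not reported here and was left out of their counts. Alternatives were the overlap and strength thresholds, RLE, no filter, DESeq2 1.42.0, the replicate block, summed libraries, other distances and leaving out each library.

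Same-numbered libraries of both genotypes did not deviate together, with correlations of 0.0014 in basal, −0.14 in Cd49b+, −0.30 in mature luminal and −0.16 in PNA+ cells.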

Additional observations from a re-analysis of the deposited data

Results flagged for a closer look

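In 104 groups of 4 LP libraries (52 genes, both genotypes) the highest or lowest library was compared with the rest, and 3 stood apart, where chance gives about 1 in 20. Thada, near an intronic wild-type-only peak, had 138 CPM in the second knockout PNA+ library and 63.5 to 73.2 in the other knockout libraries. Khdrbs3 had 14.2 CPM in the second knockout Cd49b+ library and 6.66 to 7.67 in the others. Wnt5b had 44.8 CPM in the second wild-type PNA+ library and 52 to 53.1 in the other wild-type libraries. Each of the 3 was found in a different library.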

How the results depend on the processing

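The count of 3271 wild-type-only peaks was 3308 when an overlap of at least 50% of either peak was required and 3203 when a gap of up to 500 bases counted as shared. It moved to 90 with a fold of at least 10 in the wild-type peak, 576 with that fold in both lists, 1115 with a −log10 q of at least 10 in both, and 1157 with as many wild-type as knockout peaks. The cause was not tested beyond the smaller lists that these thresholds leave. Of genes near members called in LP (60), 57 were called with RLE, 49 with no filter, 123 with DESeq2, 0 with summed libraries, 28 within 10000 bases, 6 with a fold of at least 10, and 23 to 141 without single libraries: 32 without the first and 141 without the second knockout Cd49b+ library, 30 and 31 without the knockout PNA+ libraries, 29 and 31 without the wild-type Cd49b+ and 31 and 23 without the wild-type PNA+ ones. In basal cells (1) it was 0 with RLE, no filter, the block, a fold of at least 10 or any library left out, and 18 with DESeq2. In mature luminal cells (4) it was 24 with DESeq2, 1 within 10000 bases, 1 with a fold of at least 10, and 0 to 1 without single libraries. The replicate block, which shared only numbers, gave 67 in LP and 0 in mature luminal cells. The crossed pairing, added after seeing the data, gave 110 and 8. The share over all genes is given above only for the main fit, DESeq2, summed libraries and without the second knockout Cd49b+ library. Of the 20 genes with the largest LP differences, 20 lost the call when libraries were summed and 5 to 8 when a library other than the second knockout Cd49b+ one was left out, with none changing direction. Genes with small differences changed sign: Tsc22d3 (log2 −0.0743 with the block and the crossed pairing, −0.218 to 0.26 without single libraries), Lrp5 (−0.113 and −0.112, and −0.221 to 0.26), Runx1 (−0.0455 to 0.18), Tgfb1 (−0.372 to 0.0987), Cdkn1c (−0.6 to 0.112) and Ccne1 (−0.369 to 0.0463), none of which was called in any of these fits. The planned shares of peaks near a start site and with a hormone response element were not run, as no rn6 genome or gene annotation was used here beyond the gene names, position words and distance filter of the partial peak annotation. ChIP depth and single libraries limit every statement on which peaks are absent from the knockout.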
